A study of Bos taurus with 45 samples.

Results

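*BMP6* (ENSBTAG00000019234) was followed through rumen papillae that were taken from 15 heifers at 3 points of a move to more grain. The gene was chosen by its measured values, a fall in level and a narrowing of the differences between heifers as grain increased, and it was 1 of 24616 genes with a value in each of the 45 libraries. Its levels, its changes and its spread are therefore given as a description, with no test of diet. The tests below concern the order of the heifers and relations within a diet, which were not used in the choice.

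The animals were Angus-Hereford cross-bred yearling heifers labelled as healthy, and all 15 went through the same stepwise increase in grain. The labels call this transition rapid, and the methods use both rapid and gradual for it. The diets are called 3%, 75% and 92% grain here, as in the sample labels, and the study's methods give the same diets as 0%, 72% and 89% barley grain. They were fed on days 1 to 4, 13 to 16 and 21 to 29, and the methods place the biopsies of the ventral sac of the rumen on days 3, 15 and 26. Every heifer met the diets in this order, with other grain levels between them, so grain level and time cannot be told apart, and control heifers without the transition were not analysed here. Only the *BMP6* identifier and 10 others could be paired with a gene symbol, so the papillae could not be checked against marker genes of epithelium, vessels, connective tissue or immune cells, and the ligands, receptors and targets of the pathway could not be read.

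*BMP6* encodes bone morphogenetic protein 6, a secreted ligand of the transforming growth factor beta superfamily. The ligand binds pairs of type I and type II serine/threonine kinase receptors, which phosphorylate the BMP-responsive SMAD proteins, and these move to the nucleus with SMAD4 and act on target genes such as the *ID* genes. In the liver it is known as the signal from sinusoidal endothelial cells that sets hepcidin to the iron stores, and in skin it is expressed by keratinocytes as they leave the basal layer and differentiate. The ruminal epithelium is likewise a stratified squamous epithelium, with a living basal part that takes up short chain fatty acids and a cornified surface. Its papillae also hold vessels, fibroblasts and immune cells, and in bulk tissue fewer cells of a type and less *BMP6* RNA per cell cannot be told apart. In the RefSeq annotation of the bovine assembly ARS-UCD2.0, no other gene overlaps *BMP6*, and the neighbouring protein-coding genes are *TXNDC5*, which lies close beside it, and *SNRNP48*. Whether the gene models on which the reads were counted are also apart was not checked, since they belong to another assembly. Whether the reads were counted by strand is not given in the sources used here, so antisense reads could not be told apart from those of the gene.

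Each library held 22.5 to 37.1 M reads on genes (M stands for 1000000), with medians of 30.8, 28.4 and 31.0 M on 3%, 75% and 92% grain. Levels are in RPM, the share of a library's reads on genes that fell on *BMP6*, per 1000000, so they compare 1 gene between libraries. The whole reads behind the RPM could be recovered, and *BMP6* was covered by 44 to 483, 25 to 140 and 15 to 105 reads on these diets. On the first 2 principal components, the libraries of heifer 172 on 3% grain and heifer 286 on 92% grain lay farthest from the median of their diet. Their distances were 45.5 and 34.7, against 26.1 for the next library. *BMP6* was 3.55 RPM in the former and 0.906 RPM in the latter.

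*BMP6* was highest on 3% grain and lowest on 92% grain. On 3% grain it was 5.87 ± 4.13 RPM (SD, n = 15), with 1.45 RPM in the lowest heifer, a median of 4.81 RPM and 15.7 RPM in the highest. On 75% grain it was 2.93 ± 1.33 RPM (SD, n = 15), with 0.963 RPM in the lowest heifer, a median of 3.11 RPM and 5.74 RPM in the highest. On 92% grain it was 1.97 ± 0.775 RPM (SD, n = 15), from 0.590 RPM through a median of 1.97 RPM to 3.16 RPM. The ranges overlapped between every pair of diets. Of the 15 heifers on 3% grain, 11 were above every heifer on 92% grain and 6 were above every heifer on 75% grain, while 5 heifers on 92% grain and 4 on 75% grain were below every heifer on 3% grain. In the order of the means, the levels on 75% and 92% grain were neighbours whose difference, 2.93 against 1.97 RPM, was smaller than the SD of 1.33 RPM on 75% grain. The difference between 3% and 75% grain was also smaller than the SD of 4.13 RPM on 3% grain. All 15 heifers on 3% grain had more than 1 RPM, the level the study required of an expressed gene in every heifer of a diet. On 75% grain 1 heifer was at or below that level, and on 92% grain 2 heifers were, those at 0.590 and 0.906 RPM. *BMP6* was among the 11516 genes that exceeded 1 RPM in every heifer of some diet, and it met that filter through the 3% grain diet alone. By that rule the study counted it among the genes expressed only on the diet with the least grain, although every library here held reads of it.

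**Figure D1:**
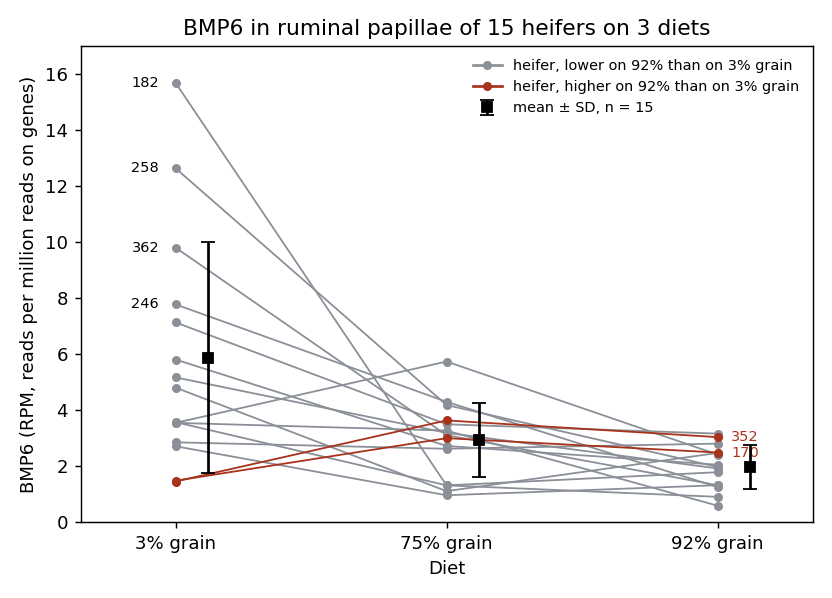
*BMP6* level in RPM (vertical axis) on the 3 diets (horizontal axis), where each line joins the 3 libraries of 1 heifer and the black squares with bars are the mean ± SD over 15 heifers. The heifers reached from 1.45 to 15.7 RPM on 3% grain and from 0.590 to 3.16 RPM on 92% grain, and only heifers 352 and 170, in red, were higher on 92% than on 3% grain.

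Within heifers, most animals had less *BMP6* on the diets with more grain. From 3% to 92% grain the level was lower in 13 of 15 heifers, and the ratio of the levels in the same heifer ran from 0.114 through a median of 0.371 to 2.09. The mean fell by 66.5%, which is 2.98-fold. On log2(RPM + 1) the difference was -1.04 (standard error 0.24 with the diets unpaired, 0.25 when paired by heifer). The standard errors in the next paragraph also take the diets as unpaired. Among the 11516 genes, 2.06% were lower in at least 13 of 15 heifers on 92% grain, and 0.287% passed a limma adjusted p of 0.05 with a fall of over 1.5-fold. This contrast chose the gene, so nothing is read from its place among those genes. The median difference of all genes was 0.06 on the same scale.

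From 3% to 75% grain *BMP6* was lower in 12 of 15 heifers, with a ratio from 0.0839 through a median of 0.490 to 2.50. The mean fell by 50.0%, and the log2 difference was -0.67 (standard error 0.25), against a median of 0.08 over all genes. At least 12 heifers were lower for 3.99% of the genes, and 0.13% passed the limma threshold as lower. From 75% to 92% grain the level was lower in 11 of 15 heifers, with a ratio from 0.180 through a median of 0.754 to 2.23. The mean fell by 32.9%, the log2 difference was -0.37 (standard error 0.17), while 15.3% of the genes were lower in at least 11 heifers. Of the fall in mean RPM between 3% and 92% grain, 75.3% was there on 75% grain. Heifer 182 weighs on this share, with a fall of 14.4 RPM at the first step against a mean fall of 2.93 RPM. The share was smaller on log2(RPM + 1), where the differences from 3% grain were -0.67 on 75% and -1.04 on 92% grain. It was also smaller on the medians of 4.81, 3.11 and 1.97 RPM. The 3 comparisons between diets share libraries with each other.

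The path over the diets differed between heifers. In 8 heifers *BMP6* was lower at both steps, in 4 it was lower and then higher, in 3 it was higher and then lower, and in 0 it was higher at both. Heifer 182 had the highest level on 3% grain, 15.7 RPM from 483 reads. It had 1.32 RPM from 43 reads when fed 75% grain, and 1.79 RPM from 61 reads when fed 92% grain. The next highest on 3% grain, heifers 258, 362 and 246, began at 12.6, 9.80 and 7.78 RPM. On 75% grain they had 4.18, 3.11 and 4.30 RPM, and on 92% grain 1.97, 1.32 and 1.26 RPM, so each was lower at both steps. At the other end, heifer 352 had 1.45 RPM on 3% grain, then 3.63 RPM and then 3.04 RPM. Heifer 170 had 1.48, 3.00 and 2.49 RPM. These heifers were the lowest on 3% grain and the only 2 of the 15 that were higher on 92% than on 3% grain. Both ends were picked by their level on 3% grain, where a single library can lie high or low. No response particular to a heifer is therefore read from these paths. Heifer 172, whose 3% grain library stood apart, had 3.55 RPM there, the highest level of all heifers on 75% grain at 5.74 RPM, and 2.42 RPM on 92% grain. In heifer 314 the level barely moved, with 2.85, 2.62 and 2.81 RPM.

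The changes were set against the error of counting the reads. The exact 95% Poisson intervals of a heifer did not overlap between 3% and 92% grain in 12 heifers, of which 11 were lower and 1 was higher on 92% grain. Between 3% and 75% grain 10 heifers were lower and 3 were higher with intervals apart. Between 75% and 92% grain the intervals overlapped in 8 heifers, and they were apart in 6 heifers that were lower and 1 that was higher. Intervals that overlap do not show that the levels were equal. The intervals cover counting error only and not the variation between biopsies of 1 heifer, for which there was 1 library per diet. They take each recovered read as 1 independent fragment, and they would be too narrow if fragments were counted more than 1 time.

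The spread between heifers narrowed with grain, the other property by which the gene was chosen. The coefficient of variation was 70.3%, 45.5% and 39.4% over the 3 diets in order of grain. The highest heifer had 10.8, 5.96 and 5.36 times the level of the lowest, and the interquartile range was 4.26, 1.60 and 1.16 RPM. Counting alone would give a coefficient of variation of 7.43%, 11.0% and 12.7%, which rose as the reads became fewer. It accounted for 1.12%, 5.83% and 10.4% of the variance between heifers, and the SD beyond counting was 4.10, 1.29 and 0.734 RPM. These counting values take each recovered read as 1 independent fragment. Much of the width on 3% grain lay in a few heifers. Without the highest heifer the mean there was 5.16 ± 3.22 RPM (SD) with a coefficient of variation of 62.4%, and without the highest 3 it was 4.16 ± 2.03 RPM with 48.9%, against 45.5% and 39.4% in all 15 heifers on the other diets. The tail was chosen after its values were seen, and these values are given with no test. The highest heifers of the other diets were not left out, so the trimmed values have no like values there.

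**Figure D2:**
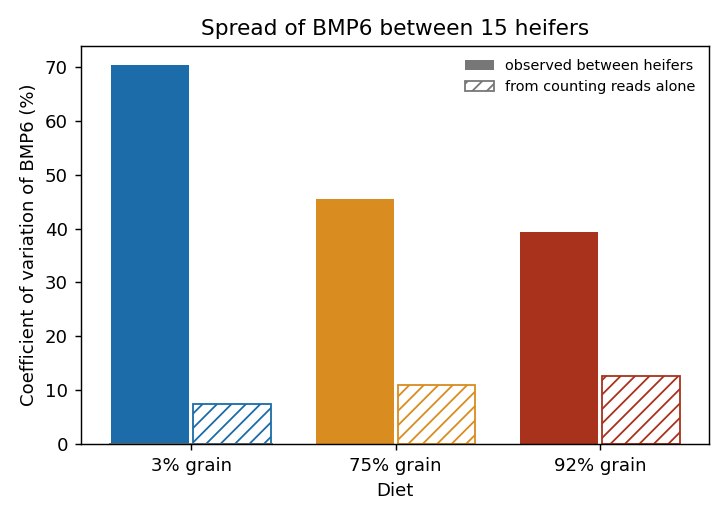
Coefficient of variation of *BMP6* over 15 heifers in percent (vertical axis) on each diet (horizontal axis), with filled bars for the observed value and hatched bars for the value that counting reads alone would give. The observed value was 70.3%, 45.5% and 39.4%, and the counting value was 7.43%, 11.0% and 12.7%.

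The narrowing of *BMP6* is set beside that of all genes for scale, and since the narrowing chose the gene, nothing is read from its place among them. On log2(RPM + 1) the SD of *BMP6* was 0.82, 0.53 and 0.41 over the 3 diets. The SD was lower on 92% than on 3% grain for 57.3% of the 11516 genes, with a median ratio of 0.945, and 2.47% of genes were reduced at least as far as *BMP6*, whose ratio was 0.494. From 3% to 75% grain the SD was lower for 63.3% of genes, with a median ratio of 0.902, and 14.9% were reduced as far as *BMP6* with its ratio of 0.647. From 75% to 92% grain the SD was lower for 44.3% of genes, with a median ratio of 1.04, and 13.7% were reduced as far as *BMP6* with its ratio of 0.764. An added 1 RPM flattens differences at levels near 1 RPM, where *BMP6* stood on 92% grain, and the share depended on it. With 0.1 RPM added, the ratio of *BMP6* from 3% to 92% grain was 0.643 and 12.3% of genes were reduced as far. From 3% to 75% grain the ratio was then 0.750 with 29.4% of genes, and from 75% to 92% grain it was 0.857 with 24.3%. The coefficient of variation, which needs no added value, had a ratio of 0.560 from 3% to 92% grain, with 5.42% of genes reduced as far. It was 0.647 with 14.4% of genes from 3% to 75% grain, and 0.866 with 25.8% from 75% to 92% grain.

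The heifers that were high in *BMP6* on 1 diet were not detectably those that were high on another. The order of the heifers was compared between diets on log2(RPM + 1) over the 15 heifers with two-sided permutation tests, 3 relations in all. Between 3% and 75% grain Pearson's r was 0.01 (permutation p = 0.959, adjusted p = 0.959) and Spearman's rho was 0.10 (permutation p = 0.714, adjusted p = 0.714). Between 3% and 92% grain r was -0.17 (permutation p = 0.549, adjusted p = 0.823) and rho was -0.28 (permutation p = 0.307, adjusted p = 0.714). Between 75% and 92% grain r was 0.22 (permutation p = 0.439, adjusted p = 0.823) and rho was 0.13 (permutation p = 0.639, adjusted p = 0.714). Without the 2 heifers farthest from the median on the diet with less grain, r was 0.35, -0.03 and 0.28 in the same order. No adjusted p was under 0.05, which does not show that the orders were unrelated. Heifer 182, for example, had rank 1 of 15 when fed 3% grain, rank 13 when fed 75% grain and rank 10 when fed 92% grain. Over all genes, libraries of the same heifer resembled each other. The median correlation of their deviations from the diet means was 0.356 over 45 pairs, against -0.022 over 630 pairs of different heifers. That correlation is between 2 libraries over many genes, so it cannot be set against the r of *BMP6* over heifers.

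**Figure D3:**
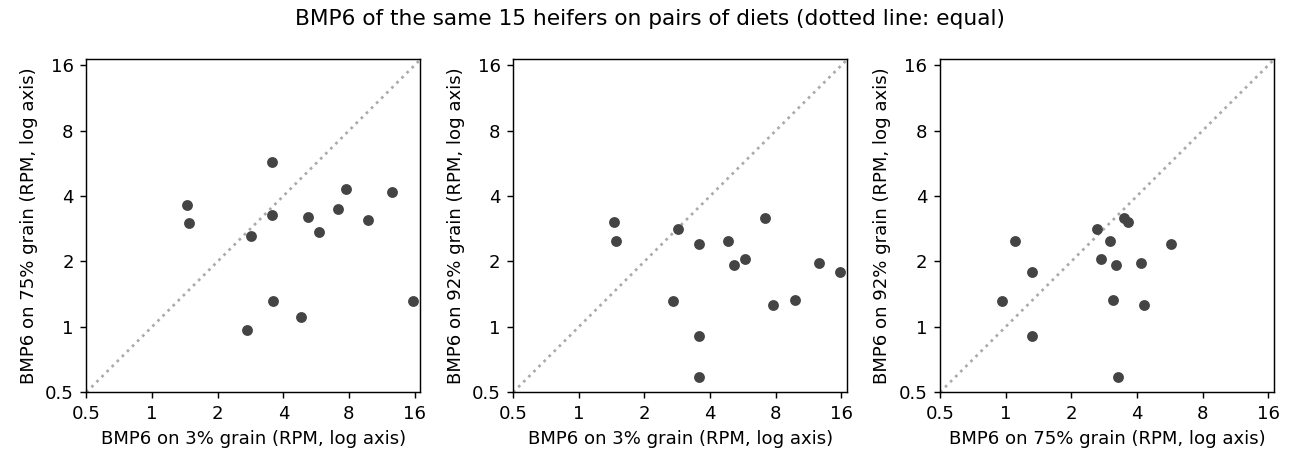
*BMP6* in RPM on log axes, where each of the 3 panels sets the same 15 heifers on 1 diet (horizontal axis) against another (vertical axis) and the dotted line marks equal levels. Points below the line were lower on the diet with more grain, 12 for 75% against 3%, 13 for 92% against 3% and 11 for 92% against 75% grain.

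The study placed the heifers in ruminal pH groups of 5 by the change in mean pH from 75% to 92% grain. The pH fell in the down group (DG), stayed similar in the balanced group (BG) and rose in the up group (UG). The groups come from the study and not from the sample labels. The study lists the heifers of DG and UG, and BG was taken as the remaining 5. Each group is described by its lowest, median and highest heifer, and no test was made between them. In DG, *BMP6* was 1.48, 3.55 and 15.7 RPM (lowest, median, highest) on 3% grain. It was 1.32, 3.00 and 3.27 RPM when 75% grain was fed, and 0.590, 1.92 and 2.81 RPM when 92% grain was fed. In BG, in the same order of diets, it was 2.71, 7.78 and 12.6 RPM, then 0.963, 4.18 and 5.74 RPM, then 1.26, 1.32 and 2.42 RPM. In UG it was 1.45, 4.81 and 7.13 RPM, then 1.11, 2.72 and 3.63 RPM, then 0.906, 2.47 and 3.16 RPM. The ranges of the 3 groups overlapped on every diet. From 3% to 92% grain *BMP6* was lower in 4 of 5 DG heifers, with a median ratio of 0.371. It was lower in 5 of 5 BG heifers with a median ratio of 0.162, and in 4 of 5 UG heifers with a median ratio of 0.443. At the step that defines the groups, from 75% to 92% grain, it was lower in 3 of 5 DG heifers, with a ratio from 0.180 through a median of 0.829 to 1.36. It was lower in 4 of 5 BG heifers, from 0.292 through 0.425 to 1.37, and in 4 of 5 UG heifers, from 0.688 through 0.836 to 2.23. At this step *BMP6* was higher in 2 DG heifers, 1 BG heifer and 1 UG heifer. Of these, only heifer 262 of UG had counting intervals that did not overlap.

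**Figure D4:**
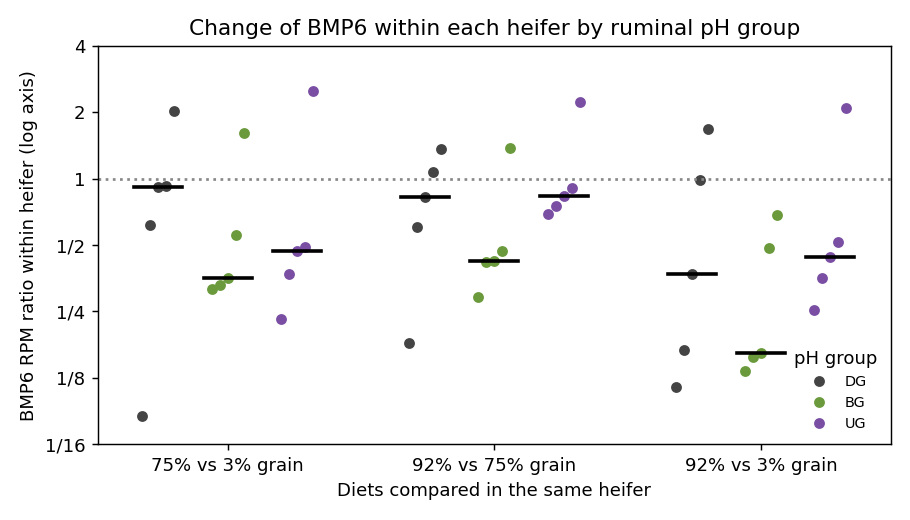
Ratio of *BMP6* RPM between diets in the same heifer (vertical axis, log scale, dotted line at no change) for 3 pairs of diets (horizontal axis), with 5 heifers in each ruminal pH group and black bars at the group medians. From 3% to 92% grain the medians were 0.371 in DG, 0.162 in BG and 0.443 in UG, and the ranges of the groups overlapped.

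Some genes followed *BMP6* across the libraries. The correlation of log2(RPM + 1) with *BMP6* was computed for the 11515 other genes over 45 libraries, which share heifers and diets and are not independent, so it is a description with no p. The median r was -0.04, and 64 genes were above 0.5 and 39 below -0.5. The highest r was that of ENSBTAG00000018513, at 0.80 (rho 0.73), and 0.72 without the 2 libraries farthest from its median. Its level over the 3 diets was 70.3 ± 45.4, 39.9 ± 17.2 and 25.1 ± 10.7 RPM (SD, n = 15 each). It ran from 11.3 to 175 RPM on 3% grain and from 9.05 to 41.3 RPM on 92% grain, and it was lower on 92% than on 3% grain in 13 of 15 heifers, so both its level and its range shrank along with those of *BMP6*. Over the deviations from the diet means r was 0.70 (rho 0.58), and within the 3 diets it was 0.87, 0.40 and 0.57. The gene was picked for its r over these same libraries, and within the 3 diets 740, 1062 and 687 genes had an r above 0.5. It was the highest of all genes over the deviations as well, where 104 genes were above 0.5 and 12 below -0.5. ENSBTAG00000019181 came next over the 45 libraries, with r 0.73 and 0.57 over the deviations, and its level was 34.1 ± 7.95, 26.1 ± 4.24 and 20.6 ± 5.12 RPM on the 3 diets. Of the 5 genes most like *BMP6* over the libraries, 3 were also among the 5 most like it over the deviations.

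ENSBTAG00000036116 and ENSBTAG00000032236 had the lowest r and were abundant. The gene with the next lowest r, ENSBTAG00000015757, was not. Its r was -0.59, and -0.40 over the deviations from the diet means. Its means were 0.873, 2.03 and 1.96 RPM over the 3 diets, so it met the filter only through a diet where it was high. *BMP6* met the filter through 3% grain alone and was chosen for its fall, so nothing is read from the r of -0.59. ENSBTAG00000036116 had an r of -0.69 (rho -0.74) and a level of 9105 ± 1418, 12218 ± 3052 and 11710 ± 1496 RPM over the 3 diets. ENSBTAG00000032236 had an r of -0.65 (rho -0.76) and 2354 ± 387, 3193 ± 876 and 3038 ± 475 RPM. Over the deviations from the diet means, r was -0.57 for ENSBTAG00000036116 and -0.53 for ENSBTAG00000032236. Within the 3 diets in order of grain, the r of ENSBTAG00000036116 with *BMP6* over the 15 heifers was -0.51, -0.82 and -0.33, and that of ENSBTAG00000032236 was -0.39, -0.85 and -0.37. The value of -0.85 on 75% grain, where the SD of both was widest, was the lowest of all genes on that diet, and 612 genes there were below -0.5. The 4 heifers with the least *BMP6* on that diet, from 0.963 to 1.32 RPM, were the 4 with the most of ENSBTAG00000036116 and also the 4 with the most of ENSBTAG00000032236, while the next heifer had 2.62 RPM of *BMP6*. This was looked for after the values were seen and was not tested.

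**Figure D5:**
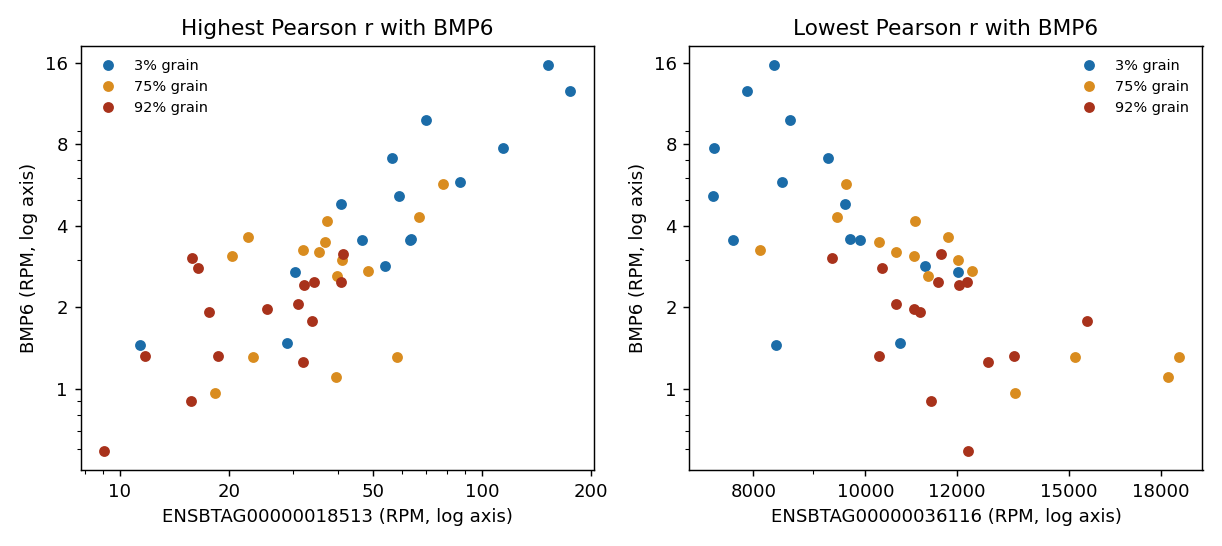
*BMP6* in RPM (vertical axis, log scale) against the gene with the highest r, ENSBTAG00000018513, on the left and the gene with the lowest, ENSBTAG00000036116, on the right (horizontal axes, RPM, log scale), with 1 point per library coloured by diet. The points rise on the left with r 0.80 and fall on the right with r -0.69 over 45 libraries that share heifers.

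For 10 genes a symbol was known, from the genes that the study linked to a diet, and their relation to *BMP6* was tested within each diet together with 2 library measures, 36 relations in all. By the permutation tests, 0 had an adjusted p under 0.05 for r or rho, 4 had an unadjusted p under 0.05 for r and 3 for rho, and the smallest adjusted permutation p was 0.186. On 3% grain *CTGF*, a matricellular growth factor of connective tissue, had an r of 0.65 (permutation p = 0.00892, adjusted p = 0.186) and a rho of 0.68 (permutation p = 0.00639, adjusted p = 0.230). Without the 2 heifers farthest from its median r was 0.81, and on 75% and 92% grain it was 0.41 and 0.21, or 0.43 and 0.16 without them. *LOXL2*, an enzyme that crosslinks collagen and elastin, had an r of 0.64 on 3% grain (permutation p = 0.0103, adjusted p = 0.186) and a rho of 0.57, and an r of 0.46 and 0.21 on the other diets. Without the 2 farthest heifers its r was 0.64, 0.40 and -0.07. *BMP6* fell with grain while the means of these genes were higher on both diets with more grain, 3.70, 5.08 and 4.98 RPM for *CTGF* and 2.40, 5.28 and 3.82 RPM for *LOXL2*. *FOSB*, a subunit of the AP-1 transcription factor that is induced early after stimulation, had an r of 0.38, 0.53 and 0.45 on 3%, 75% and 92% grain, and 0.22, 0.25 and 0.31 without the 2 farthest heifers. *VNN1*, a pantetheinase, had 0.09, 0.16 and 0.49, and 0.29, 0.34 and 0.74 without them. On 92% grain *VNN1* was at 1.09 ± 0.677 RPM (SD, n = 15), near the added 1 RPM. Its r of 0.49 there had a permutation p of 0.0635 (adjusted p = 0.448). For *BOLA-A*, a class I major histocompatibility gene with close copies between which reads could be split, r was 0.54 on 3% grain and 0.07 without the 2 farthest heifers. On 75% and 92% grain its r was -0.08 and -0.08. Over the 3 diets *RASL1A* had -0.23, -0.17 and -0.15, and *ABCG1* had -0.23, -0.06 and -0.35. For *CXorf57* r was 0.32, 0.05 and -0.15, for *CDHR2* 0.43, -0.06 and 0.30, and for *LIFR* 0.28, 0.07 and -0.14. The reads on genes of a library had an r of 0.22, -0.21 and 0.38 with *BMP6*, and the share taken by the 10 most abundant genes had -0.15, -0.09 and -0.28.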

How the data were processed

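Per the methods, RNA of RIN above the study's limit went into TruSeq mRNA libraries, paired-end reads were demultiplexed with CASAVA 1.8 and aligned to the bovine UMD 3.1 genome with TopHat2 2.0.10, and reads on Ensembl genes were counted with htseq-count. The authors deposited RPM, 1 file per sample, and the values of each file sum to 1000000. All values were whole multiples of 1 read within 0.01 read, which gave the reads on genes. The methods put 9 samples in a lane with all diets in each, but which samples shared a lane is not given in the sources used here, so no value could be repeated within lanes. Groups were taken from the sample labels, and libraries of the same animal were paired by its ID, which the labels give. Among 990 pairs of libraries, no chi-square of the reads was below 17.5 per degree of freedom, so no library was present in duplicate.

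*BMP6*, its comparisons and the lists were chosen with earlier results of these data known. The filter was more than 1 RPM in each of the 15 heifers of some diet. Calls used limma 3.58.1 on log2(RPM + 1) with a variance trend and no term for the heifer, with edgeR 4.0.16 (R 4.3.3) on the recovered reads as an alternative, and both were tested on simulated data. Correlations used 100000 permutations, with Benjamini-Hochberg adjustment (Python 3.11.15, numpy 2.4.6, pandas 2.3.3, scipy 1.17.1). Plots used matplotlib 3.10.9. Named genes were *BMP6*, the genes with the highest and lowest r, and those that the study pairs with a symbol. No table here paired other identifiers with symbols, so the planned lists of BMP pathway and cell type marker genes were not run, and the 10 genes with a symbol and 2 library measures were put in place of the marker lists after the files were seen. Sequences are not given.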

Additional observations from a re-analysis of the deposited data

How the results depend on the processing

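The differences of *BMP6* between diets, its spread and the order of the heifers kept their direction under all alternatives run. On log2(RPM + 1) the differences were -0.67, -1.04 and -0.37 for 75% against 3%, 92% against 3% and 92% against 75% grain. They were -0.74, -1.09 and -0.35 with TMM or median-of-ratios scaling and -0.83, -1.34 and -0.51 with 0.1 RPM added. Leaving out each heifer in turn gave -0.78 to -0.51, -1.16 to -0.93 and -0.45 to -0.30, and an SD of 0.74 to 0.85, 0.48 to 0.55 and 0.34 to 0.42 on 3%, 75% and 92% grain. With 0.1 RPM added the SD was 0.99, 0.74 and 0.64 in place of 0.82, 0.53 and 0.41, since the smaller addition flattens low values less. Alternatives chosen after seeing the data follow. Without the libraries of heifer 172 on 3% grain and heifer 286 on 92% grain the differences were -0.69, -1.02 and -0.33, the SD was 0.85, 0.53 and 0.39, and r with ENSBTAG00000018513 was 0.79. Without both heifers, r between 75% and 92% grain was 0.02 in place of 0.22. With a replicate block for the heifer, the paired standard errors were 0.25, 0.25 and 0.15 against 0.25, 0.24 and 0.17.

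The number of genes called lower differed between the fits. The edgeR fits also differ in scaling (TMM) and in the scale of the values, so the tool alone was not compared. limma called 15, 33 and 0 genes lower in the same order and 162, 205 and 0 higher, and edgeR 47, 96 and 0 lower and 151, 214 and 0 higher. With the replicate block limma called 18, 42 and 7 lower, and edgeR 45, 91 and 12. With TMM scaling limma called 23, 47 and 1 lower and 104, 143 and 1 higher. For 92% against 75% grain, 842 genes were lower and 488 higher at an unadjusted p under 0.05 with limma, and 665 lower and 705 higher with edgeR, so the larger side turned. The reads on *BMP6*, 15 at the least, limit what can be told of 1 heifer between 75% and 92% grain. The alternatives planned for the pathway and marker lists were not run.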
